A study of Bos taurus with 34 samples.

Results

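The CCN family is a small set of secreted, cysteine-rich proteins of the extracellular matrix, and its transcripts were followed here through the lining of the bovine oviduct and uterus on day 2 after ovulation. The members named were CCN1 (older symbol CYR61), CCN2 (CTGF), CCN3 (NOV), CCN4 and CCN5 (WISP2). A transcript feature of the deposited count table was given to a member where RefSeq annotation (ARS-UCD2.0) mapped its identifier to that symbol; of several features, the one with the most counts on average would be used. Of the 5 genes, 4 had a feature, 1 each, among 38568 features of the table, of which 26092 mapped to 21284 genes. CCN5 had no feature and was not analysed here.

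CCN proteins are called matricellular because they sit in the matrix and act as signals there, by binding integrins, proteoglycans and growth factors, rather than as a scaffold. CCN1 and CCN2 are classical targets of the transcriptional co-activators YAP and TAZ, which respond to tension and cell shape, and CCN2 is also a target of TGF-beta. CCN1 was found as an immediate early gene, a gene transcribed within minutes of a stimulus without new protein synthesis. CCN3 binds the receptor NOTCH1 and is known from smooth muscle and connective tissue, and CCN4 was found in mouse mammary cells as a gene induced by WNT signalling. In human and mouse uterus CCN1 and CCN2 have been described in the endometrium.

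RNA was sequenced from 34 libraries of 5 adult Holstein heifers that had never calved, numbered 10872, 10882, 11033, 11070 and 11110 in the labels. All animals had gone through the same 5-day synchronisation with a progesterone insert, so every group shares that treatment, the breed and the day, and no group was left untreated. There were 7 groups: the ampulla of the oviduct on the ovulatory (ipsilateral) and on the opposite (contralateral) side, the upper uterine horn on both sides, the mid uterine horn on both sides, and the uterine body. Each group held 1 library from each of the 5 heifers, except the ipsilateral upper horn with 4, where heifer 11110 was not analysed here. The 10 ampulla libraries are taken below against the 24 endometrium libraries of horn and body, then each ipsilateral site against its contralateral partner.

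Library totals ran from 11619486 to 30412782 counts, with a median of 20610132. Levels are given as CPM, library-scaled counts after TMM normalisation, and they can be compared between libraries for 1 gene but not between genes, because the values are not set per transcript length. Summed ciliated epithelium markers stood at 1730 to 2468 CPM in ampulla and at 118 to 617 CPM in endometrium. Over 10 general epithelium markers the sums were 5554.5 to 7411 CPM in ampulla and 935 to 4025 CPM in endometrium. Of the 9 tested, 6 were called higher in the ampulla in the test below, where 29.4% of all features were. CLDN4 and ELF3 were called lower, where 35.6% of all features were, and CDH1 was not called. Summed over 14 stroma markers, ampulla samples held 321 to 1037 CPM and endometrium samples 42983 to 93270 CPM. Of these, 6 had 0 counts in all 10 ampulla libraries: DCN, which averaged 43.1 CPM in endometrium, COL6A2 with 3.08 CPM there, LUM with 2.17 CPM, and PDGFRA, PDGFRB and POSTN, which stayed under 1 CPM in endometrium too. Over 11 markers each, endothelium stood at 7.41 to 32.4 CPM in ampulla and 765 to 1969 CPM in endometrium, and smooth muscle at 8.36 to 23.0 CPM in ampulla and 243 to 3702 CPM in endometrium. The vessel marker CLDN5 was at 0 in every ampulla library and averaged 72.6 CPM in endometrium; PECAM1, CDH5, VWF, ACTA2, MYH11, TAGLN, SMTN and CALD1 were at 0 in every ampulla library but averaged under 1 CPM in endometrium as well. These are bulk samples, so fewer cells of a type and less RNA per cell cannot be told apart in any value below. Among the libraries, 3 stood apart. The contralateral mid horn of heifer 10882 held 1311 CPM of oviduct epithelium markers, against 12.6 to 82.6 CPM in the other 4 of its group. The contralateral upper horn of heifer 11033 and contralateral ampulla of heifer 11070 had the fewest detected features. Apart from these, 18S ribosomal RNA took 23.5% of counts in the uterine body of heifer 11033. It took 19.6% in the contralateral upper horn of heifer 10882 and 11.1% in the contralateral ampulla of heifer 11110.

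The comparison of the ampulla with the endometrium asked which of these signals each lining carries. All 4 measured CCN transcripts were lower in the ampulla, by 4.21-fold for CCN1, 32.02-fold for CCN3, 93.5-fold for CCN2 and 1637-fold for CCN4. In the same test 64.9% of the 17241 features tested were called, 35.6% as lower in the ampulla and 29.4% as higher, so a lower value there was common. CCN4 entered the test only through its endometrium libraries, since it would not have passed the count filter on the ampulla libraries alone; a gene of that kind had to differ, and its call is no support for a pattern.

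**Figure D1:**
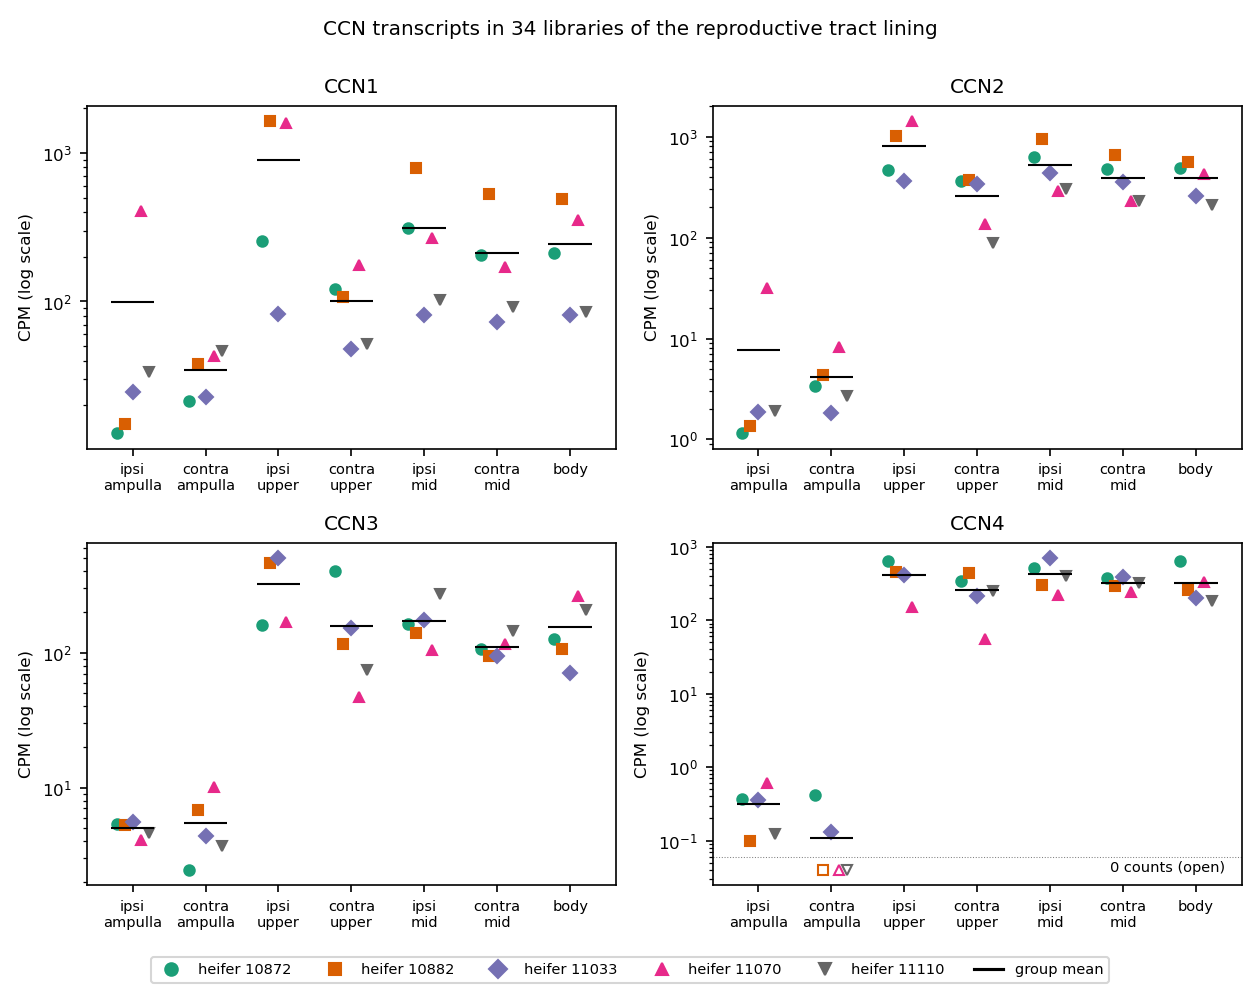
CPM of CCN1, CCN2, CCN3 and CCN4 (log scale) in each library of the 7 groups, 1 symbol per heifer, with a bar at the group mean; open symbols at the foot of the CCN4 panel are libraries with 0 counts. CCN2, CCN3 and CCN4 lie lower in all 10 ampulla libraries than in any endometrium library, as do 6.54% of the features tested. CCN4 entered the test through its endometrium libraries and had to differ. In CCN1, 1 ipsilateral ampulla library of heifer 11070 reaches 408 CPM.

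CCN1, the immediate early member, had 13.0, 14.9, 24.6, 408 and 33.4 CPM in the ipsilateral ampulla of heifers 10872, 10882, 11033, 11070 and 11110, and 21.3, 38.0, 22.9, 42.9 and 46.8 CPM in the contralateral ampulla of the same animals. The ipsilateral upper horn held 254, 1627, 82.5 and 1597 CPM in heifers 10872, 10882, 11033 and 11070, and the contralateral upper horn 121, 107, 48.0, 176 and 52.1 CPM in the 5 heifers in the order given. In that order the ipsilateral mid horn held 311, 795, 81.6, 267 and 102 CPM, the contralateral mid horn 206, 524, 72.6, 171 and 91.4 CPM, and the uterine body 213, 490, 81.5, 354 and 85.4 CPM. The groups overlapped through a single ampulla library: at 408 CPM the ipsilateral ampulla of heifer 11070 exceeded 19 of the 24 endometrium libraries, while the other 9 ampulla libraries reached at most 46.8 CPM and the lowest endometrium library 48.0 CPM.

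Averaged within heifers first, CCN1 was 66.6 ± 89.2 CPM in ampulla and 306 ± 264 CPM in endometrium (SD, n = 5 heifers). The edgeR quasi-likelihood test gave a log2 difference of -2.07 ± 0.42 (SE) with a Benjamini-Hochberg adjusted p of 1.19e-04, and the ampulla was lower in 5 of 5 heifers. Without the ipsilateral ampulla library of heifer 11070, an alternative chosen after seeing the data, the difference was 6.36-fold. CCN1 also varied widely between animals: the heifer means of the endometrium were 672 CPM in heifer 10882, 487 CPM in 11070, 220 CPM in 10872, 78.02 CPM in 11110 and 74.6 CPM in 11033. The mean of heifer 11110 held no ipsilateral upper horn library, the site where CCN1 was highest in heifers 10882 and 11070. In both mid horns heifer 10882 was highest, followed by 10872, 11070, 11110 and 11033, and in the body the order differed only in that 11070 stood above 10872.

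CCN2, the connective tissue growth factor, had 1.16, 1.35, 1.86, 31.96 and 1.91 CPM in the ipsilateral ampulla of heifers 10872, 10882, 11033, 11070 and 11110, and 3.40, 4.37, 1.84, 8.23 and 2.72 CPM in the contralateral ampulla. The ipsilateral upper horn held 466, 1005, 362 and 1417 CPM in heifers 10872, 10882, 11033 and 11070, and the contralateral upper horn 360, 373, 340, 137 and 87.8 CPM in the 5 heifers. Ipsilateral mid horns held 629, 943, 439, 290 and 301 CPM, contralateral mid horns 480, 652, 353, 228 and 230 CPM, and the body 493, 560, 258, 426 and 211 CPM. No ampulla library reached any endometrium library, which held for 6.54% of the features tested in this direction. The library that was highest in CCN1 within the ampulla, the ipsilateral one of heifer 11070, was highest in CCN2 as well.

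CCN2 averaged 5.88 ± 7.95 CPM in ampulla and 436 ± 185 CPM in endometrium (SD, n = 5 heifers), lower in the ampulla in 5 of 5. The log2 difference in edgeR was -6.55 ± 0.51 (SE; adjusted p = 9.20e-12). Its size rested partly on the same library: without the ipsilateral ampulla of heifer 11070 it was 156-fold, and without that heifer altogether 175-fold.

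CCN3, the NOTCH1-binding member, had 5.42, 5.30, 5.54, 4.11 and 4.62 CPM in the ipsilateral ampulla of the 5 heifers in the same order, and 2.46, 6.85, 4.39, 10.1 and 3.69 CPM in the contralateral ampulla. The ipsilateral upper horn held 160, 459, 501 and 169 CPM in heifers 10872, 10882, 11033 and 11070, and the contralateral upper horn 405, 115, 152, 47.1 and 75.0 CPM in the 5. Ipsilateral mid horns held 162, 141, 175, 104 and 271 CPM, contralateral mid horns 107, 94.96, 93.7, 116 and 143 CPM, and the body 126, 106, 71.2, 264 and 207 CPM. The groups did not overlap, which held for 6.54% of the features tested in this direction. The heifer 11070 ampulla library that stood out in CCN1 and CCN2 was the lowest of its group in CCN3.

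CCN3 averaged 5.24 ± 1.33 CPM in ampulla and 170 ± 8.73 CPM in endometrium (SD, n = 5 heifers). The edgeR log2 difference was -5.00 ± 0.36 (SE; adjusted p = 5.38e-13), with the ampulla lower in 5 of 5 heifers. The small spread of the endometrial means hid a wide one below it: single endometrium libraries ran from 47.1 to 501 CPM, but each heifer's mean over its uterine sites lay between 161 and 181 CPM.

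CCN4, the WNT-induced member, was close to absent from the ampulla counts. The ipsilateral ampulla held 7, 2, 7, 14 and 2 counts in the 5 heifers, which is 0.368, 0.100, 0.362, 0.606 and 0.123 CPM. The contralateral ampulla held 8, 0, 2, 0 and 0 counts, that is 0.418 and 0.131 CPM in heifers 10872 and 11033. Where the count was 0, 3 counts set the limit that counting error allows: 0.190 CPM in heifer 10882, 0.240 CPM in 11070 and 0.194 CPM in 11110.

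In the uterus CCN4 had 635, 448, 416 and 149 CPM in the ipsilateral upper horn of heifers 10872, 10882, 11033 and 11070, and 346, 444, 211, 55.6 and 249 CPM in the contralateral upper horn of the 5. Ipsilateral mid horns held 517, 305, 697, 220 and 397 CPM, contralateral mid horns 376, 293, 383, 241 and 321 CPM, and the body 630, 257, 200, 330 and 181 CPM. Even the lowest endometrium library, at 55.6 CPM, thus lay far above the highest ampulla library at 0.606 CPM. Of the features tested, 6.54% were separated in this direction. The means were 0.211 ± 0.151 CPM in ampulla and 338 ± 116 CPM in endometrium (SD, n = 5 heifers), lower in the ampulla in 5 of 5. The edgeR log2 difference of -10.68 ± 0.44 (SE, adjusted p = 2.67e-19) rested on 42 ampulla counts in all, and without heifer 10872 it came to 2626-fold. CCN4 entered the test through its endometrium libraries and had to differ, so that p is no support.

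These differences run beside those of the marker lists given above, in which the stroma, endothelium and smooth muscle sums were low in the ampulla. The summed epithelium markers were high there, though not each marker was. The part of these lists in the CCN differences was not tested. In the ipsilateral ampulla of heifer 11070, the 14 stroma markers summed to 757 CPM, inside the range of 713 to 1037 CPM of its group. Leaving out the 3 libraries that stood apart gave differences of 3.90-fold for CCN1, 91.5-fold for CCN2, 37.8-fold for CCN3 and 1580-fold for CCN4. edgeR called each again, though CCN4 had to differ.

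Ordered by mean CPM over the 7 sites, CCN1 was highest in the ipsilateral upper horn at 890 ± 836 CPM, followed by the ipsilateral mid horn at 311 ± 288, the body at 245 ± 177 and the contralateral mid horn at 213 ± 183 CPM (SD, n = 4 for the ipsilateral upper horn and 5 elsewhere). The contralateral upper horn at 101 ± 53.2, the ipsilateral ampulla at 98.8 ± 173 and the contralateral ampulla at 34.4 ± 11.6 CPM closed the order, and each site overlapped the next. For CCN2 the order broke once, between the contralateral upper horn at 260 ± 136 CPM and the ipsilateral ampulla at 7.65 ± 13.6 CPM. For CCN4 the break lay between the same sites, at 261 ± 146 CPM in the contralateral upper horn and 0.312 ± 0.208 CPM in the ipsilateral ampulla. For CCN3 the break lay between the contralateral mid horn at 111 ± 20.3 CPM and the contralateral ampulla at 5.49 ± 3.02 CPM. All other neighbours overlapped in range and differed by less than the larger SD. CCN3 held its highest mean, 322 ± 183 CPM, in the ipsilateral upper horn, and CCN4 its highest, 427 ± 187 CPM, in the ipsilateral mid horn.

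The comparison of sides asked whether the lining near the ovary that had ovulated differs from the opposite one. In the upper horn CCN1 was higher on the ipsilateral side in 4 of 4 heifers, by 1.72-fold to 15.2-fold, and CCN2 in 4 of 4, by 1.07-fold to 10.4-fold. CCN4 was also higher in 4 of 4 and CCN3 in 3 of 4; across all features tested, 10.5% were higher on the ipsilateral side in every one of these heifers. The wide CCN1 range came from heifers 10882 and 11070, with 1627 and 1597 CPM on the ipsilateral side against 107 and 176 CPM on the contralateral side. The contralateral library of heifer 10882 is the one with 19.6% of 18S counts. On raw library totals, without TMM, that heifer had 1408 CPM of CCN1 ipsilaterally against 51.0 CPM contralaterally, so the size of its ratio depended on the scaling. Heifers 10872 and 11033 had 254 and 82.5 CPM ipsilaterally against 121 and 48.0 CPM contralaterally.

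**Figure D2:**
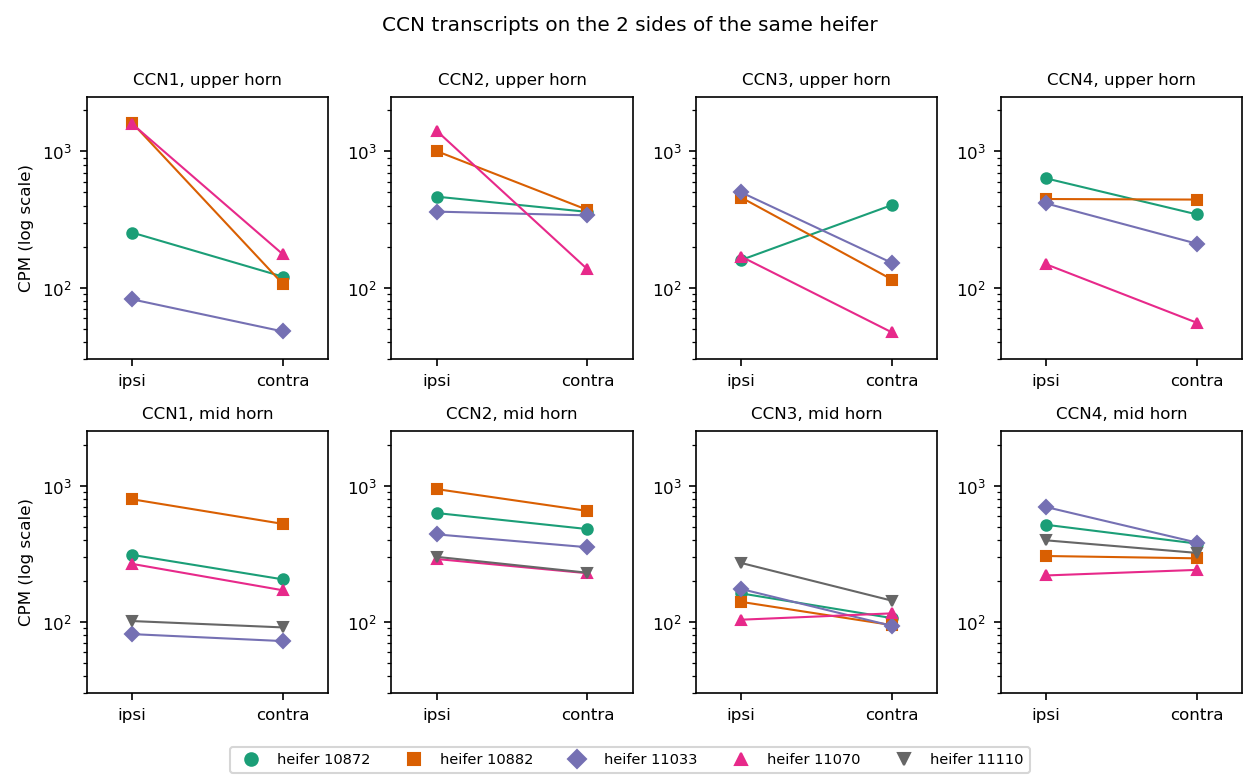
CPM (log scale) of the 4 CCN transcripts on the ipsilateral and contralateral side of the same heifer, in the upper horn (top, 4 heifers) and in the mid horn (bottom, 5 heifers); lines join the sides of 1 animal. In the upper horn CCN1 lines fall towards the contralateral side in 4 of 4 heifers, steeply in heifers 10882 and 11070, and in the mid horn in 5 of 5 with ratios of 1.11 to 1.56.

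None of the 4 transcripts passed the threshold for side in the upper horn. edgeR gave CCN1 a log2 difference of 2.38 ± 0.67 (SE; adjusted p = 0.528), CCN2 one of 1.198 ± 0.61 (adjusted p = 0.737), CCN3 one of 1.08 ± 0.49 (adjusted p = 0.706) and CCN4 one of 0.55 ± 0.42 (adjusted p = 0.818). Of all features 0.0058% passed, which is 1, against 1188 with an unadjusted p under 0.05, and DESeq2 called 15 features but no CCN transcript, with an adjusted p of 0.0589 for CCN1. The edgeR fit without a filter on low counts did call CCN1 (adjusted p = 3.59e-16), CCN2 (3.38e-04) and CCN3 (0.0128), so the call for side depended on the filter. That fit called 173 features in all, against 1 with the filter. Its log2 difference for CCN1 was 2.45, near the 2.38 of the main fit, so the p moved far more than the difference.

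In the upper horn, though not in every pair of the mid horn, smooth muscle markers moved with CCN3. In heifers 10882 and 11033, where CCN3 was 459 and 501 CPM ipsilaterally against 115 and 152 CPM contralaterally, the 11 muscle markers summed to 3405 and 3702 CPM against 653 and 578 CPM. In heifer 10872, the one animal with less CCN3 on the ipsilateral side (160 against 405 CPM), the muscle sum was lower there too, at 636 against 1316 CPM. Heifer 11070 had 169 against 47.1 CPM of CCN3 and 967 against 243 CPM of muscle markers. The 14 stroma markers were higher ipsilaterally in 3 of 4 of these heifers and lower in heifer 11033, at 52050 against 77139 CPM. The part of muscle and stroma in the CCN differences of the upper horn was not tested.

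In the mid horn the sides lay closer together. CCN1 and CCN2 were each higher ipsilaterally in 5 of 5 heifers, by 1.11-fold to 1.56-fold and by 1.24-fold to 1.45-fold, a pattern that 3.23% of features shared. CCN3 and CCN4 were each higher ipsilaterally in 4 of 5. The 14 stroma markers were higher ipsilaterally in 5 of 5 as well, with sums of 73415, 83539, 83038, 74936 and 63426 CPM in the ipsilateral mid horn of heifers 10872, 10882, 11033, 11070 and 11110, against 52253, 46329, 42983, 70585 and 55820 CPM in the contralateral one. General epithelium markers were lower ipsilaterally in 4 of 5, at 1923 to 3487 CPM ipsilaterally and 2242 to 4025 CPM contralaterally, and the contralateral library of heifer 10882 is the one that held oviduct epithelium markers. In the other 4 heifers CCN1 and CCN2 were higher ipsilaterally too. Smooth muscle markers and CCN3 went opposite ways in heifers 11070 and 11110. Their muscle sums were 455 and 244 CPM ipsilaterally against 390 and 350 CPM contralaterally, and their CCN3 values 104 and 271 CPM against 116 and 143 CPM. In heifers 10872, 10882 and 11033 both were higher ipsilaterally. The part of these markers in the CCN differences was not tested. The log2 differences were 0.46 ± 0.60 for CCN1, 0.40 ± 0.57 for CCN2, 0.61 ± 0.45 for CCN3 and 0.35 ± 0.39 for CCN4 (SE), none past the threshold in edgeR, which called 0 of all features there, with 513 at an unadjusted p under 0.05 and 19 called by DESeq2.

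In the ampulla the side of ovulation gave no common direction. CCN1 and CCN2 were higher ipsilaterally in 2 of 5 heifers, CCN3 in 3 of 5 and CCN4 in 4 of 5, with log2 differences of 0.68 ± 0.64, 0.49 ± 0.63, -0.15 ± 0.48 and 1.52 ± 0.76 (SE); none was called, where 0.0174% of features were (3, against 1250 at an unadjusted p under 0.05 and 16 by DESeq2). Without the ipsilateral library of heifer 11070 the differences of CCN1 and CCN2 turned to -0.27 and -1.18. The CCN4 value rested on 32 ipsilateral and 10 contralateral counts.

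**Figure D3:**
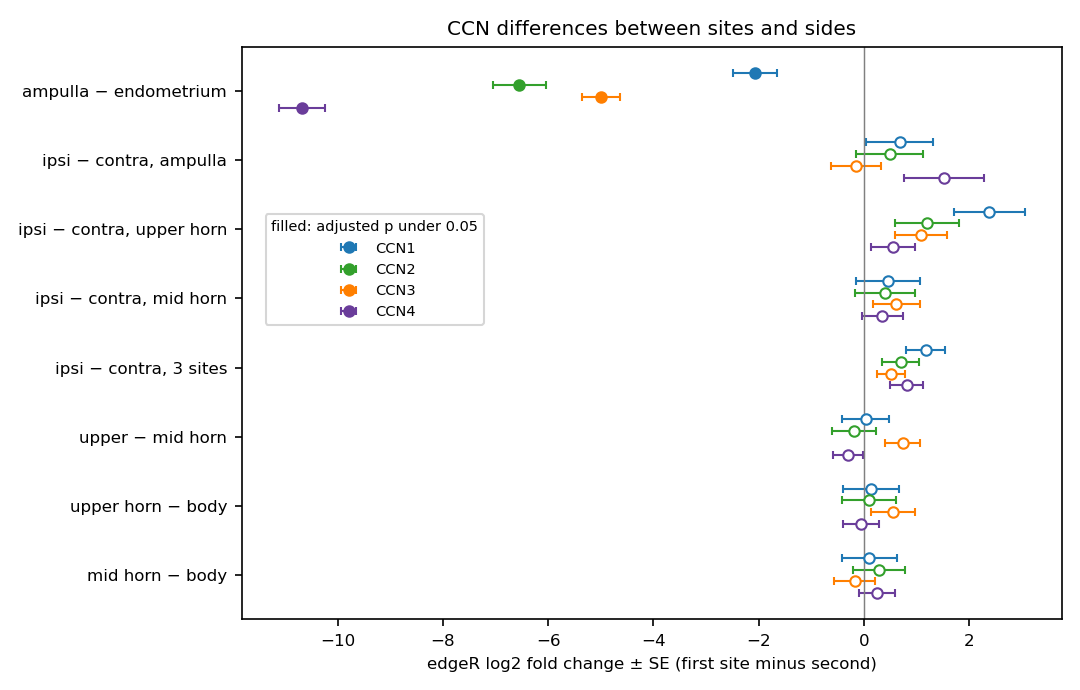
edgeR log2 fold changes with their SE for the 4 CCN transcripts in 8 comparisons, the first-named site or side minus the second; filled points have an adjusted p under 0.05. Filled points appear in the ampulla against the endometrium, between -2.07 and -10.68, and all points for side and for sites within the uterus are open. CCN4 had to differ in the comparison of ampulla with endometrium.

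Over the 3 paired sites together CCN1 had a log2 side difference of 1.17 ± 0.37 (SE; adjusted p = 0.255), CCN4 one of 0.81 ± 0.32 (adjusted p = 0.304), CCN2 one of 0.70 ± 0.36 and CCN3 one of 0.52 ± 0.27. The ipsilateral value was higher in 11 of 14 pairs for CCN1 and CCN2, 10 of 14 for CCN3 and 12 of 14 for CCN4. The 14 pairs come from 5 heifers, so they are not independent, and the share of all features with such counts was not determined. For CCN4, 4 of the 12 were ampulla pairs, where no library held more than 14 counts. edgeR called 0 features over these sites, with 2299 at an unadjusted p under 0.05 and 69 called by DESeq2, where CCN1 had an adjusted p of 0.0549. Without the filter on low counts edgeR called all 4 CCN transcripts, among 507 features called in all. The difference of the side effect between ampulla and horns was itself tested and called for none of the 4, with log2 values of -0.74 ± 0.77 for CCN1, -0.31 ± 0.75 for CCN2, -0.995 ± 0.58 for CCN3 and 1.07 ± 0.81 for CCN4 (SE); 0 features passed in edgeR, 918 had an unadjusted p under 0.05 and DESeq2 called 7.

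Along the uterus no CCN transcript passed the threshold either. For the upper against the mid horn CCN3 had a log2 difference of 0.73 ± 0.34 (SE; edgeR adjusted p = 0.790), and CCN1, CCN2 and CCN4 had 0.03 ± 0.44, -0.19 ± 0.42 and -0.30 ± 0.29. CCN3 was called there in the edgeR fit without the count filter (adjusted p = 0.0366), among 207 features called in all. For the upper horn against the body the values were 0.14 ± 0.53, 0.10 ± 0.51, 0.55 ± 0.42 and -0.06 ± 0.35 for CCN1 to CCN4, and for the mid horn against the body 0.10 ± 0.52, 0.29 ± 0.50, -0.18 ± 0.39 and 0.24 ± 0.34. In these comparisons edgeR called 0.0174%, 0.0232% and 4.45% of features, with 1049, 1927 and 4833 at an unadjusted p under 0.05, and DESeq2 called 21, 12 and 2714 features.

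The genes whose levels ran most like each member were taken by Spearman correlation of CPM over libraries, among named genes with a mean of at least 1 CPM; libraries share 5 animals and the contrast of ampulla with endometrium, so the values are descriptions. For CCN1 they were EGR1, a zinc finger transcription factor of the immediate early class (correlation of 0.953 over 34 libraries), FOS, a subunit of AP-1 (0.919), and the chemokine CXCL3 (0.902). Within the 24 endometrium libraries EGR1 again came first (0.937), then DNAJB4, a co-chaperone (0.872), and CXCL3 (0.864). The level of CCN1 thus ran with that of EGR1 over both tissues and within the uterus alone.

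**Figure D4:**
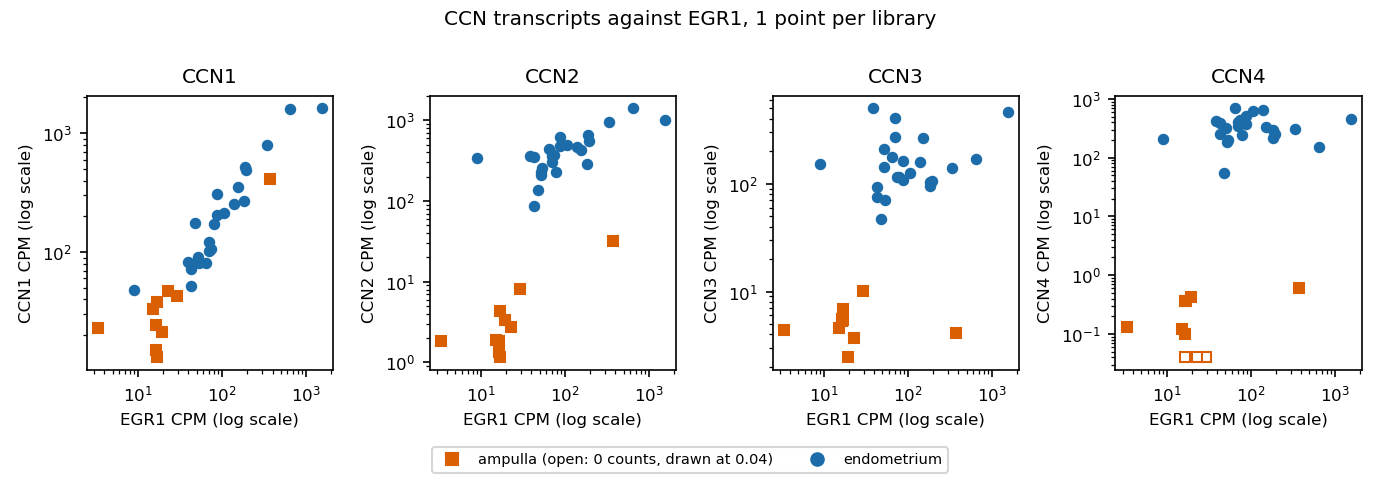
CPM of CCN1, CCN2, CCN3 and CCN4 against CPM of EGR1 (both log scale), 1 point per library; squares are ampulla libraries, circles endometrium libraries, and open squares CCN4 at 0 counts. In CCN1 the ampulla library with 371 CPM of EGR1 and 408 CPM of CCN1 lies among the endometrium points, whereas in CCN3 and CCN4 the ampulla and endometrium points form separate bands at any EGR1 level.

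For CCN2 the most alike over all libraries were ADAMTS1, a secreted metalloprotease (0.921), the growth factor PDGFD (0.909) and RRAD, a small GTPase (0.907), and within the endometrium the survival factor MCL1 (0.910), IER3 (0.848), an immediate early response gene, and ERRFI1 (0.848), a feedback inhibitor of the EGF receptor. CCN3 was most like MAOB, a monoamine oxidase (0.886 over all, 0.745 within the endometrium), NRP2, a semaphorin co-receptor (0.864 and 0.680), and DIPK1A (0.856 and 0.696). For CCN4 they were RAB31 (0.977 over all, 0.957 within the endometrium) and RAB12 (0.954 and 0.923), both small GTPases of vesicle traffic, with SLC35F6 (0.951) over all libraries and the deubiquitinase BAP1 (0.923) within the endometrium. The members themselves were less alike: within the endometrium CCN1 and CCN2 had a correlation of 0.729, CCN2 and CCN4 0.429, CCN3 and CCN4 0.416, CCN2 and CCN3 0.291, CCN1 and CCN3 0.134, and CCN1 and CCN4 0.058. Against the summed smooth muscle markers in the same 24 libraries, the Spearman correlation was 0.424 for CCN1, 0.672 for CCN2, 0.498 for CCN3 and 0.312 for CCN4. Against stroma markers the values for CCN1 to CCN4 were 0.410, 0.409, 0.337 and 0.197. Against endothelium they were -0.242, 0.0217, 0.418 and 0.312, and against general epithelium 0.197, 0.285, 0.128 and 0.483. For CCN4 the highest of these was thus general epithelium.

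Genes around the family were described by lists chosen with earlier results of these data known, and counted over the features that passed the filter. Some of them, such as DKK1, LEF1, FOSL1 and SMAD3, passed only through the endometrium libraries. Others with few ampulla counts, such as ITGA5, ITGB1, TGFBR2 and LTBP1, may have passed in that way too. The calls of genes that did are no support for a pattern, and how many of them each count below holds was not determined. The counts and medians below are therefore descriptions. Over all features tested, 35.6% were called lower in the ampulla and 29.4% higher, the shares beside which each count below stands. Of 13 receptors and co-receptors of CCN proteins, 10 had a feature and 6 were tested; 4 were lower in the ampulla and 0 higher, with a median log2 of -1.73 against -0.18 over all features. ITGA5, the integrin chain that pairs with ITGB1 as a fibronectin receptor, averaged 0.202 ± 0.149 CPM in ampulla and 8.78 ± 2.17 CPM in endometrium (SD, n = 5 heifers; log2 -5.36). ITGAM, the leukocyte integrin that binds CCN1 and CCN2, had 0.520 ± 0.233 CPM in ampulla and 12.9 ± 3.53 CPM in endometrium (log2 -4.59). NOTCH1, which CCN3 binds, stood at 0.669 ± 0.469 CPM in ampulla and 2.82 ± 0.896 CPM in endometrium (log2 -1.97). ITGB1 stood at 0.196 ± 0.142 CPM in ampulla and 0.596 ± 0.267 CPM in endometrium (log2 -1.49). Over the ampulla libraries ITGA5 rested on 35 counts and ITGB1 on 38. Each value is that of 1 transcript feature, and reads of a gene with several transcripts may have been split or lost. A low value is thus no measure of the whole gene. Leukocyte markers, a list that also holds ITGAM, summed to 19.5 to 51.4 CPM in ampulla and 108 to 352 CPM in endometrium.

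Of 16 genes of the YAP and TAZ machinery, 9 were tested: 1 was higher in the ampulla, 2 were lower, and the median log2 was -0.24, next to -0.18 over all features. YAP1 itself did not pass (55.4 ± 24.03 CPM in the ampulla, 67.6 ± 19.9 CPM in the endometrium, SD, n = 5 heifers). TEAD2, a DNA-binding partner of YAP, had 2.93 ± 0.771 CPM in ampulla and 8.73 ± 3.24 CPM in endometrium, and its relative TEAD3 had 119 ± 22.5 CPM in ampulla and 145 ± 14.2 CPM in endometrium. MOB1B, a co-factor of the LATS kinases, was higher, at 2.36 ± 0.155 CPM in ampulla and 1.16 ± 0.259 CPM in endometrium.

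Of 20 other YAP and TAZ target genes, 11 were tested; 2 were higher in the ampulla and 8 lower, against 29.4% and 35.6% of all features, with a median log2 of -1.53. Among the lowest called was the forkhead factor FOXF2, with 0.404 ± 0.229 CPM in ampulla and 38.0 ± 5.32 CPM in endometrium. NT5E, the ecto-nucleotidase CD73, went the other way, with 953 ± 254 CPM in ampulla and 20.5 ± 30.6 CPM in endometrium (log2 6.79), as did the tissue factor gene F3, with 172 ± 86.0 CPM in ampulla and 49.3 ± 15.4 CPM in endometrium (log2 1.77). Targets of the same co-activators thus lay on both sides of the comparison.

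Of 16 TGF-beta pathway genes, 8 were tested, 5 were lower in the ampulla and 0 higher, against 35.6% and 29.4% of all features, and the median log2 was -1.76. The type II receptor gene TGFBR2 stood at 0.353 ± 0.168 CPM in ampulla and 3.76 ± 0.617 CPM in endometrium, and the ligand gene TGFB3 at 1.69 ± 0.664 CPM in ampulla and 17.6 ± 10.7 CPM in endometrium. LTBP1, which stores latent TGF-beta in the matrix, had 0.299 ± 0.147 CPM in ampulla and 1.29 ± 0.641 CPM in endometrium. The signal transducer SMAD3 had 0.104 ± 0.0743 CPM in ampulla and 0.323 ± 0.148 CPM in endometrium. Over the ampulla libraries TGFBR2 rested on 62 counts, LTBP1 on 58 and SMAD3 on 19. Of 11 canonical WNT target genes, 10 were tested, 7 were lower in the ampulla and 0 higher, against the same shares of all features, with a median log2 of -3.59. The inhibitor DKK1 had 1 count over 10 ampulla libraries and 1.61 ± 0.636 CPM in endometrium. The transcription factor LEF1 had 0.0747 ± 0.0694 CPM in ampulla, from 14 counts, and 6.73 ± 0.200 CPM in endometrium. Of the feedback inhibitors of the pathway, NKD1 stood at 9.94 ± 2.11 CPM in ampulla and 61.8 ± 12.9 CPM in endometrium, and ZNRF3 at 49.5 ± 3.49 CPM in ampulla and 112 ± 12.5 CPM in endometrium.

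Of 22 immediate early genes, 19 were tested; 12 were lower in the ampulla and 0 higher, against 35.6% and 29.4% of all features, and the median log2 was -1.23. FOSB had 1.201 ± 1.58 CPM in ampulla and 15.0 ± 19.0 CPM in endometrium, while FOSL1 had 3 counts over 10 ampulla libraries and 0.379 ± 0.174 CPM in endometrium. FOSL2 stood at 8.95 ± 3.83 CPM in ampulla and 15.1 ± 3.26 CPM in endometrium, and MYC at 4.99 ± 0.892 CPM in ampulla and 8.50 ± 2.44 CPM in endometrium. DUSP1, a phosphatase of MAP kinases, averaged 291 ± 149 CPM in ampulla and 654 ± 198 CPM in endometrium and was called lower, while JUND, at 349 ± 46.6 CPM in ampulla and 454 ± 152 CPM in endometrium, was not called. JUN did not pass, at 931 ± 813 CPM in ampulla and 929 ± 317 CPM in endometrium (SD, n = 5 heifers). Its highest ampulla value was 3787 CPM in the ipsilateral library of heifer 11070, where the other 4 libraries of the group reached at most 857 CPM.

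For side in the upper horn 0 of the 19 immediate early genes were called, with a median log2 of 1.54 against -0.04 over all features. FOS had 79.5, 1624, 34.4 and 1054 CPM in the ipsilateral upper horn of heifers 10872, 10882, 11033 and 11070, against 69.5, 76.2, 23.0 and 129 CPM in their contralateral upper horns. EGR1 had 139, 1551, 39.0 and 641 CPM on the ipsilateral and 70.3, 73.8, 8.99 and 48.1 CPM on the contralateral side of the same animals. The ipsilateral libraries of heifers 10882 and 11070, which held 1627 and 1597 CPM of CCN1, were thus the highest in FOS and EGR1 as well; the part of the immediate early genes in the CCN1 difference was not tested.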

How the data were processed

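The authors deposited 1 table of whole-number read counts per transcript feature, with 1 column per library and not normalized, per the values in the file. Libraries were stranded and made from total RNA, per the labels' protocols. The tools listed, per the submitters' processing notes, are SAMtools, HTSeq, STAR 2.7.9a and cutadapt, with no role; genome build, counting mode and annotation were not given in the sources used here. Features matched to RefSeq genes carried 95.3% of counts. Reads of genes with several transcripts may have been split or lost, CCN4 among them, since 2 of its transcripts are listed and 1 has a feature.

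CPM used TMM factors. Tests used edgeR 4.0.16 in R 4.3.3 (filterByExpr, robust quasi-likelihood F test, group and heifer as terms, all 34 libraries in 1 fit, Benjamini-Hochberg adjustment over 17241 features, calls at an adjusted p under 0.05). DESeq2 1.42.0 was an alternative. Heifer is a block because every site carries an animal number in the labels; deviations from group means had a median correlation of 0.207 over 99 library pairs of the same heifer and -0.0539 over 396 other pairs. No pair of libraries agreed within sampling noise.

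The members and lists were chosen with earlier results of these data known. Genes named from a list had the 2 lowest or 2 highest log2 values among those called, the 3 highest mean CPM in a group (immediate early genes) or the 3 highest likenesses; YAP1 was added after its values were seen. A gene that the rule names among the YAP and TAZ targets is not reported here. Intervals and limits of counting cover counting error only.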

Additional observations from a re-analysis of the deposited data

Results flagged for a closer look

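In the ipsilateral ampulla, the library of heifer 11070 lay far from the other 4 of its group in CCN1, with 408 CPM against a next highest of 33.4 CPM, and in CCN2, with 31.96 CPM against 1.91 CPM. These were the only 2 of 28 groups of libraries tested in this way, 7 sites by 4 genes, and chance alone flags about 1 in 20. CCN3 in that library was 4.11 CPM, the lowest of its group, and CCN4 was 0.606 CPM, the highest, from 14 counts. Of 20 immediate early genes with a feature, 17 were higher in it than in the other libraries of the group, among them FOS at 783 CPM against at most 26.9 CPM, EGR1 at 371 CPM against at most 16.9 CPM, JUN at 3787 CPM against at most 857 CPM and DUSP1 at 943 CPM against at most 271 CPM. The library was picked because it stood out in CCN1 and CCN2, and the share of all features highest in it was not determined. The count of 17 is thus a description. Among the ampulla libraries this one had the most detected features, 24241. Its 18S share of 0.634% of counts was the lowest of all libraries. The stroma markers, at 757 CPM, lay inside the range of the group. The contralateral ampulla of the same heifer had 42.9 CPM of CCN1, 58.2 CPM of FOS and 29.2 CPM of EGR1.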

How the results depend on the processing

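Across 14 alternatives, 2 of them chosen after seeing the data, CCN1, CCN2 and CCN3 stayed lower in the ampulla and past the threshold. On the log2 scale CCN1 lay between -2.67 and -1.69, CCN2 between -7.45 and -6.26 and CCN3 between -5.24 and -4.91. CCN4 lay between -11.36 and -10.40. It entered through its endometrium libraries and had to differ, so its calls are no support. No CCN transcript was called for side or within the uterus except without the filter on low counts. That fit called 3 for side in the upper horn, 4 for side over all paired sites and 1 in upper against mid horn. In the same comparisons it called 173, 507 and 207 features in all. The cause was not tested. The log2 of CCN1 for side in the upper horn lay between 1.92 and 3.14. Few counts in the ampulla limit CCN4, and 4 pairs limit the upper horn.

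Without the heifer block, pairing the sites by animal, the calls over all features were 1 for side in the ampulla, 0 in the upper horn, 1 in upper against mid horn and 1 in mid horn against body, where the blocked fit called 3, 1, 3 and 767. Without the block CCN2 turned to 0.0297 in upper against mid horn and CCN4 to 0.0369 in upper horn against body, and it changed no CCN call.

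Numbers of features called moved as follows. Without the count filter they were 150 for side in the ampulla, 173 in the upper horn, 140 in the mid horn, 507 over the paired sites, 116 for side by region, 207 in upper against mid horn, 150 in upper horn against body and 2057 in mid horn against body. With DESeq2 they were 16, 15, 19, 69, 7, 21, 12 and 2714 in the same order. DESeq2 size factors in edgeR gave 1276 in mid horn against body. Leaving out each heifer in turn gave ranges of 0 to 4 for side in the ampulla, 0 to 8 in the upper horn, 0 to 1 over the paired sites, 0 to 3 in upper against mid horn, 2 to 4 in upper horn against body and 0 to 1835 in mid horn against body. Without the 3 libraries that stood apart there were 0 for side in the upper horn and 1228 in mid horn against body. Without the ipsilateral ampulla library of heifer 11070 there were 3 for side in the upper horn and 2 for side by region, and without the ipsilateral upper horn library of heifer 10882 there were 0 for side in the upper horn and 456 in mid horn against body.

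None of the differences that turned in direction was past the threshold. Leaving out each heifer in turn, side in the ampulla ranged over -0.37 to 1.15 for CCN1, -0.85 to 0.81 for CCN2 and -0.34 to 0.27 for CCN3, side by region over -1.50 to 0.0019 for CCN2, upper against mid horn over -0.24 to 0.20 for CCN1, upper horn against body over -0.32 to 0.40 for CCN4, and mid horn against body over -0.0065 to 0.26 for CCN1 and -0.33 to 0.22 for CCN3. Without the ipsilateral ampulla library of that heifer, side in the ampulla was -0.27 for CCN1 and -1.18 for CCN2. Without the 3 libraries that stood apart, CCN3 was 0.27 for side in the ampulla and CCN2 -0.0321 in upper horn against body. Without the upper horn library of heifer 10882, CCN1 was -0.20 in upper against mid horn and -0.11 in upper horn against body, and CCN2 -0.00149 in upper horn against body.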

Other observations

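CCN6, the remaining family gene of this table for which values were read, is not among the named members and its values were looked at afterwards. Its 2 features were low: the feature used held 7 counts over the 10 ampulla libraries, with 0 in 8 of them, and 4.57 ± 0.948 CPM in the endometrium (SD, n = 5 heifers), where single libraries ran from 1.66 to 8.76 CPM. Like CCN4 it entered the test through its endometrium libraries and had to differ, so no test of it is given.

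In the ipsilateral upper horn of heifer 10882, the library with the highest CCN1 value of the series, 18 of the 20 immediate early genes were higher than in the other 3 libraries of that group; EGR3 was 185 CPM there against at most 36.2 CPM, and ZFP36 963 CPM against at most 389 CPM. In the ipsilateral upper horn of heifer 11070, with the second highest CCN1 value, 2 of the 20 were above all others. This count could be no higher than 2, because the library of heifer 10882, highest in 18, was among the others. It therefore does not show how far heifer 11070 lay from the remaining libraries. These libraries were chosen for their CCN1 values, so the counts are descriptions. The share of all features that were highest in each of these libraries was not determined.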
